A study of Bubalus bubalis with 6 samples.

Results

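The genes described here belong to the output of the Hippo pathway: the coactivators YAP1 and WWTR1 (also called TAZ), the DNA-binding factors TEAD1 and TEAD4, and 6 of their well known target or feedback genes, CYR61, CTGF, ANKRD1, AMOTL1, AMOTL2 and LATS2. These 10 genes were chosen by name, and their rows were taken from the gene table by symbol. The table lists 24616 genes and holds 9 of the 10 under these symbols. YAP1 was not found by symbol and was not analysed here. RNA with poly(A) tails was sequenced from muscle stem cells (MuSCs) of water buffalo, isolated from fetal longissimus muscle. The 3 GM samples were proliferating cells in a growth medium with fetal bovine serum, and the 3 DM samples were cells moved at near confluence to a differentiation medium with horse serum for some days. The labels give neither group a transgene or any further agent. Medium, serum, cell density and time in culture changed together between GM and DM samples, so their parts cannot be told apart.

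YAP1 and WWTR1 are coactivators without a DNA-binding domain of their own. When the Hippo kinases (STK3 and STK4, then LATS1 and LATS2) are active, they phosphorylate YAP1 and WWTR1 and hold them in the cytoplasm. When the kinases are quiet, as in spread, dividing cells, the coactivators enter the nucleus and bind TEAD factors on genes such as CTGF and CYR61. In muscle, TEAD factors also bind the MCAT elements of contractile genes, and YAP1 is known to favour myoblast division. RNA-seq measures the transcripts of these genes, not the location or phosphorylation of the proteins.

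Each sample had 35615864 to 40305237 counts on genes, and the 9 genes had between 1161 and 40639 counts per sample. Replicates differed beyond counting noise (chi-square divided by its degrees of freedom, 6.22 to 11.7), and DM replicate 3 stood apart from DM replicates 1 and 2 (40.5 and 41.4). The labels do not say whether samples were separate cultures, so p-values measure the spread between these samples. Calls are those past the thresholds stated with the test, and 25.3% of all tested genes were called, 15.0% higher and 10.3% lower. Of 7 myoblast markers (PAX7, MYF5, MYOD1, DES, ITGA7, CDH15 and MSTN) all were detected, and their summed level was 2734 to 2980 CPM (GM) and 2029 to 2610 CPM (DM), with 2 called lower. At an adjusted p-value under 0.05 without a fold minimum, 5 of the myoblast markers were lower and 1 was higher. Over all tested genes 63.0% passed at that value, 31.6% higher and 31.4% lower. CPM are counts scaled to a common library size after TMM normalization, a scaling by the bulk of genes. The 8 myotube markers, all called higher, summed to 376 to 772 CPM (GM) and 4422 to 6259 CPM (DM), and the 4 proliferation markers, all called lower, to 1226 to 1282 CPM and 273 to 339 CPM. The 10 fibroblast markers summed to 25489 to 25727 CPM (GM) and 77983 to 97767 CPM (DM), and 6 of them were called higher. Of the 9 fibroblast markers tested, 8 were higher and 1 was lower at an adjusted p-value under 0.05 without a fold minimum. Markers of smooth muscle and pericytes summed to 223 to 235 CPM (GM) and 211 to 313 CPM (DM), with none of 6 called. Without a fold minimum, 1 of these 6 was higher and 1 was lower at an adjusted p-value under 0.05. Adipocyte markers summed to 2.22 to 3.51 CPM (GM) and 6.80 to 8.16 CPM (DM), with 2 of 4 tested called higher. Endothelial markers summed to 3.88 to 4.61 CPM (GM) and 5.15 to 6.13 CPM (DM), with 1 of 5 tested called higher and 2 lower. Blood markers summed to 5.56 to 7.47 CPM (GM) and 7.05 to 13.4 CPM (DM), with 1 of 3 tested called higher and 1 lower. Over all lists, TCF21 (fibroblast), LEP (adipocyte), EMCN (endothelium), PTPRC and HBB (blood) were too low to be tested. The part of these shifts in the results below was not tested, and in bulk RNA fewer cells of a type and less RNA per cell cannot be told apart.

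Each gene was compared between DM and GM samples with edgeR's quasi-likelihood test, fitted to all 15576 genes with at least 10 counts in total. Values after ± are SDs over the 3 samples of a group. Differences are log2 fold changes of DM over GM, so positive values are higher in DM samples. A gene that rose or fell had an adjusted p-value under 0.05. A gene was called when its log2 fold change was also above 1 or below -1. Of the 9 genes, 1 was called, ANKRD1, which was higher in DM samples. Among all tested genes 25.3% were called, 15.0% higher and 10.3% lower. Of the 9 genes, 8 had an adjusted p-value under 0.05, with 3 rising (WWTR1, TEAD1 and ANKRD1) and 5 falling (TEAD4, CYR61, CTGF, AMOTL1 and AMOTL2). Over all tested genes 63.0% reached that value, 31.6% rising and 31.4% falling. GM and DM samples did not overlap for any of the 9 genes, against 68.8% of tested genes without overlap. The median log2 fold change of the 9 genes was -0.34, and that of all tested genes was 0.03. The median absolute log2 fold change was 0.56 for the 9 genes and 0.57 for all tested genes.

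**Figure D1:**
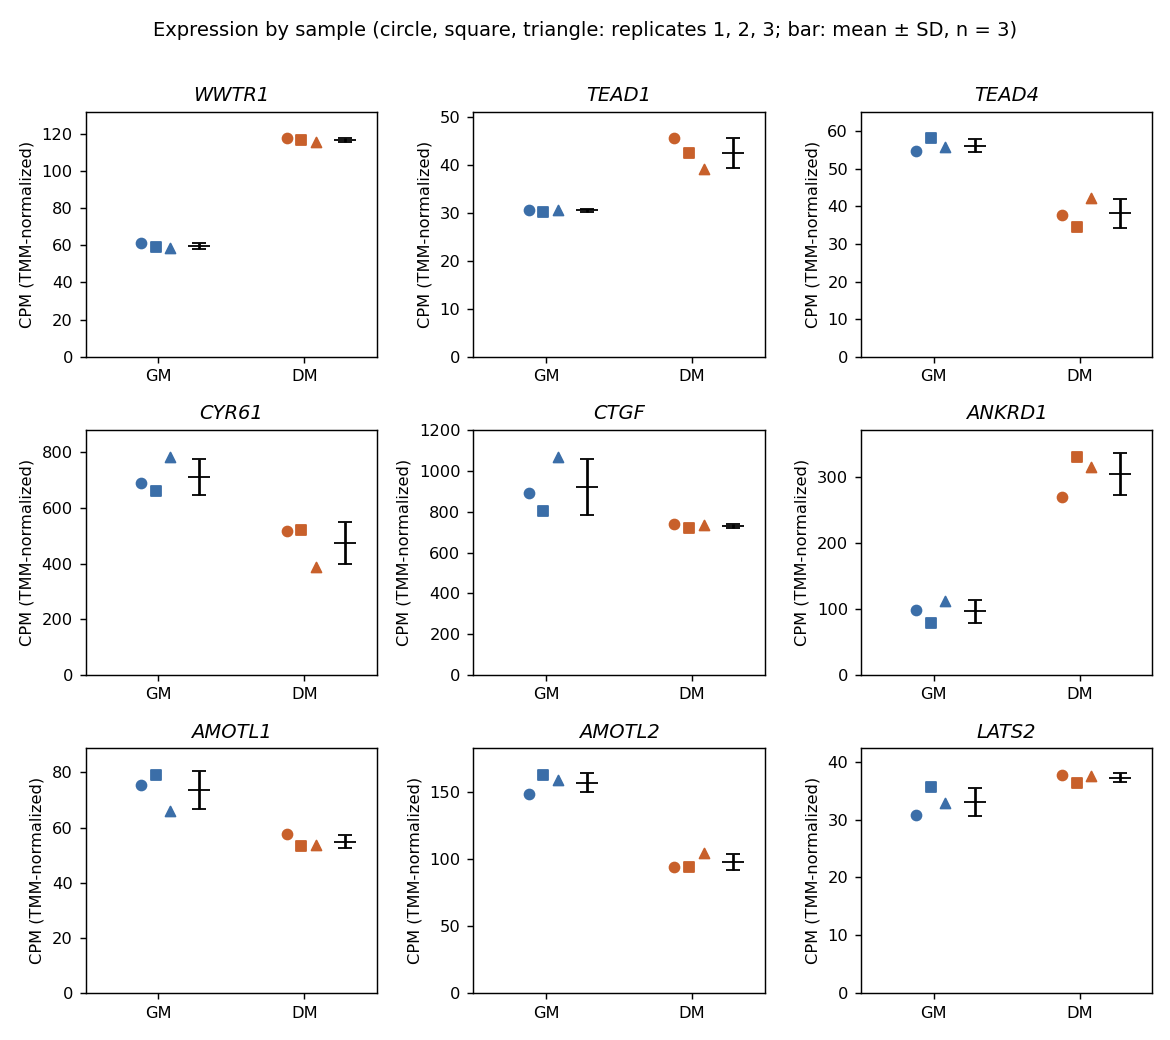
Expression of the 9 genes in CPM (y axis, from 0) in GM and DM samples, with replicates 1, 2 and 3 as circle, square and triangle and the mean ± SD (n = 3) beside them. In each panel the GM and DM points do not overlap, and LATS2 shows the smallest gap relative to its level.

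WWTR1 rose close to the calling threshold. WWTR1 (ENSBTAG00000007814, chromosome 1, 119437952 to 119583580, plus strand) encodes the coactivator TAZ, the paralog of YAP1. Coordinates are those of the deposited table, which lists cattle Ensembl identifiers and names no genome build. GM replicates 1, 2 and 3 held 61.4, 58.9 and 58.5 CPM, and DM replicates 1, 2 and 3 held 117, 117 and 116 CPM. The 3 samples of each group lay within a few CPM of each other, and the groups were far apart. The log2 fold change, with its standard error (SE), was 0.97 (SE 0.059, adjusted p = 1.99e-07), a 1.96-fold rise whose 95% confidence interval ran from 0.84 to 1.10 on the log2 scale. The interval therefore includes the threshold of 1. The estimate stayed under 1 in each of the other fits, between 0.87 and 0.99. Per length (RPKM, counts divided by gene length and by the summed gene counts), WWTR1 had 35.1 ± 0.981 RPKM in GM samples and 64.2 ± 0.932 RPKM in DM samples (SD, n = 3 each). In rank by RPKM among the 15576 tested genes it stood at 2801 in GM samples and at 1288 in DM samples.

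The TEAD factors, which carry YAP1 and WWTR1 to DNA, did not move together. TEAD1 rose and TEAD4 fell. TEAD1 (ENSBTAG00000032657, chromosome 15, 40303805 to 40482346, minus strand) held 30.7, 30.2 and 30.6 CPM in GM replicates 1, 2 and 3, and 45.5, 42.5 and 39.2 CPM in DM replicates 1, 2 and 3. All DM samples were above all GM samples, and DM samples were more spread. The log2 fold change was 0.48 (SE 0.075, adjusted p = 0.000244), a 1.39-fold rise. A miRNA gene with no counts lies within the interval of TEAD1. TEAD4 (ENSBTAG00000019788, chromosome 5, 107264250 to 107325273, minus strand), a factor known to act in myoblast differentiation, held 54.7, 58.1 and 55.9 CPM in GM replicates 1, 2 and 3. In DM replicates 1, 2 and 3 it held 37.7, 34.5 and 42.3 CPM, each below the lowest GM sample. TEAD4 fell by 0.56 on the log2 scale (SE 0.083, adjusted p = 0.000155), so that GM samples were 1.47-fold higher.

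The other TEAD genes fell as well. TEAD2 held 118, 128 and 120.0 CPM in GM replicates 1, 2 and 3, and 67.1, 64.9 and 73.7 CPM in DM replicates 1, 2 and 3. It fell by 0.83 on the log2 scale (SE 0.070, adjusted p = 2.21e-06), and its interval overlaps CD37 on the opposite strand. Whether the counting used strand is not given in the sources used here. TEAD3 held 111, 120.3 and 114 CPM in GM samples and 94.8, 92.3 and 97.3 CPM in DM samples, and fell by 0.28 on the log2 scale (SE 0.061, adjusted p = 0.00225). TEAD1 was thus the TEAD gene that rose, while the remaining 3 fell.

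With counts divided by gene length (RPKM), the share of each factor in the summed TEAD transcripts was compared. TEAD1 made up 15.5, 14.3 and 15.2% of the sum in GM replicates 1, 2 and 3. In DM replicates 1, 2 and 3 it made up 28.4, 28.0 and 24.0%. TEAD2 went from 36.2 ± 0.415% to 26.1 ± 1.05%, and TEAD4 from 24.5 ± 0.0697% to 21.3 ± 1.49% (SD, n = 3 each). TEAD3 had 24.3 ± 0.230% in GM samples and 25.7 ± 0.329% in DM samples. TEAD2 was the most abundant TEAD transcript per length in each GM sample, while in DM replicates 1 and 2 TEAD1 was the most abundant and in DM replicate 3 TEAD2 was. GM and DM samples did not overlap for any of the 4 shares. The 4 shares make up the whole in each sample, so they are not separate observations. The TEAD3 share was higher in DM samples although TEAD3 itself fell. The difference in the TEAD4 share was -3.17 percentage points, and -1.75 when counts were not divided by length. The summed TEAD level, as RPKM divided by the TMM factor, was 163 ± 5.22 in GM samples and 127 ± 4.58 in DM samples, without overlap. An exact two-sided permutation test gave p = 0.1 for each TEAD share and for the sum, the smallest p that 3 against 3 samples allow, and 0.113 after Benjamini-Hochberg adjustment over 9 such comparisons. Values per length depend on the gene lengths in the deposited table, which are 1251 bases for TEAD1, 2067 for TEAD2, 2906 for TEAD3 and 1409 for TEAD4. In CPM, which are not divided by length, TEAD3 was highest in each DM sample, and TEAD1 was below both TEAD2 and TEAD3.

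**Figure D2:**
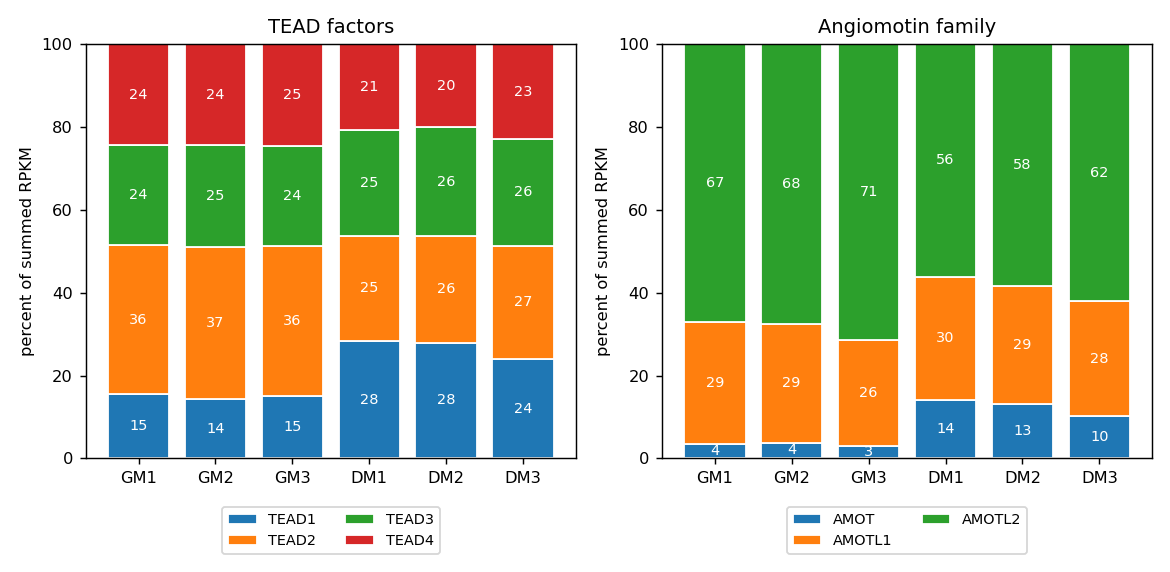
Share of each gene (y axis, percent of summed RPKM) among the TEAD factors (left) and the angiomotin family (right) in each of the 6 samples. The TEAD1 share is 14.3 to 15.5% (GM) and 24.0 to 28.4% (DM), and the AMOT share is 3.02 to 3.83% (GM) and 10.1 to 14.1% (DM).

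VGLL proteins are cofactors that compete with or replace YAP1 and WWTR1 on TEAD factors. VGLL2, the family member known from skeletal muscle, was low, with 1.04, 1.68 and 1.32 CPM in GM replicates 1, 2 and 3. The DM replicates 1, 2 and 3 held 3.40, 4.10 and 3.49 CPM, each above the GM samples. VGLL2 was called higher (log2 fold change 1.44, SE 0.23, adjusted p = 0.000310), though not in the edgeR test against a fold change of 2. VGLL3 held 133, 131 and 129.8 CPM in GM replicates 1, 2 and 3 and 83.9, 91.8 and 81.0 CPM in DM replicates 1, 2 and 3. It fell by 0.62 on the log2 scale (adjusted p = 1.24e-05). Per length the means were 135 RPKM (GM) and 82.4 RPKM (DM) for VGLL3, against 0.878 and 2.24 RPKM for VGLL2. VGLL4 had a log2 fold change of 0.22 with overlapping groups, and its adjusted p-value was 0.0505. VGLL1 had 1 count over the 6 samples and was not tested. In the list of 6 other TEAD and VGLL genes, 5 were tested, 1 was called higher and 3 fell, with a median log2 fold change of -0.28. With 25.3% of all tested genes called, 1 of 5 is near the background.

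The secreted targets and ANKRD1 moved in opposite directions. CYR61 (listed under that symbol, now also named CCN1) and CTGF (also named CCN2) encode matricellular proteins of the CCN family and are widely read as markers of YAP1 and WWTR1 activity. CYR61 (ENSBTAG00000009844, chromosome 3, 58678779 to 58681686, minus strand) held 689, 663 and 785 CPM in GM replicates 1, 2 and 3. In DM replicates 1, 2 and 3 it held 519, 519.6 and 386 CPM. All DM samples were lower than all GM samples, and DM replicate 3 was lowest. CYR61 fell by 0.58 on the log2 scale (SE 0.11, adjusted p = 0.000980), and by 0.45 without DM replicate 3.

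CTGF (ENSBTAG00000006367, chromosome 9, 70873221 to 70876455, minus strand) held 892, 804 and 1072 CPM in GM replicates 1, 2 and 3, and 741, 719 and 734 CPM in DM replicates 1, 2 and 3. The DM samples lay close together below the lowest GM sample, and GM samples were spread more widely. CTGF fell by 0.34 on the log2 scale (SE 0.093, adjusted p = 0.00917), which makes GM samples 1.26-fold higher. GM replicate 3 carried much of this difference, and without it CTGF fell by 0.22 on the log2 scale (adjusted p = 0.0413).

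ANKRD1 (ENSBTAG00000011734, chromosome 26, 12571209 to 12580580, minus strand) encodes a protein of muscle nuclei and sarcomeres that is also a standard YAP1 and TEAD target. It held 98.5, 77.9 and 112 CPM in GM replicates 1, 2 and 3, and 269.6, 331 and 315 CPM in DM replicates 1, 2 and 3. The lowest DM sample was well above the highest GM sample. The log2 fold change was 1.67 (SE 0.12, adjusted p = 9.23e-07), a 3.17-fold rise, and it lay between 1.53 and 1.79 in the other fits. Its absolute log2 fold change exceeded that of 84.6% of tested genes, while those of CYR61 and CTGF exceeded 50.8% and 32.3%. Summed myotube markers were also higher in every DM sample, and their part in the change of ANKRD1 was not tested.

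**Figure D3:**
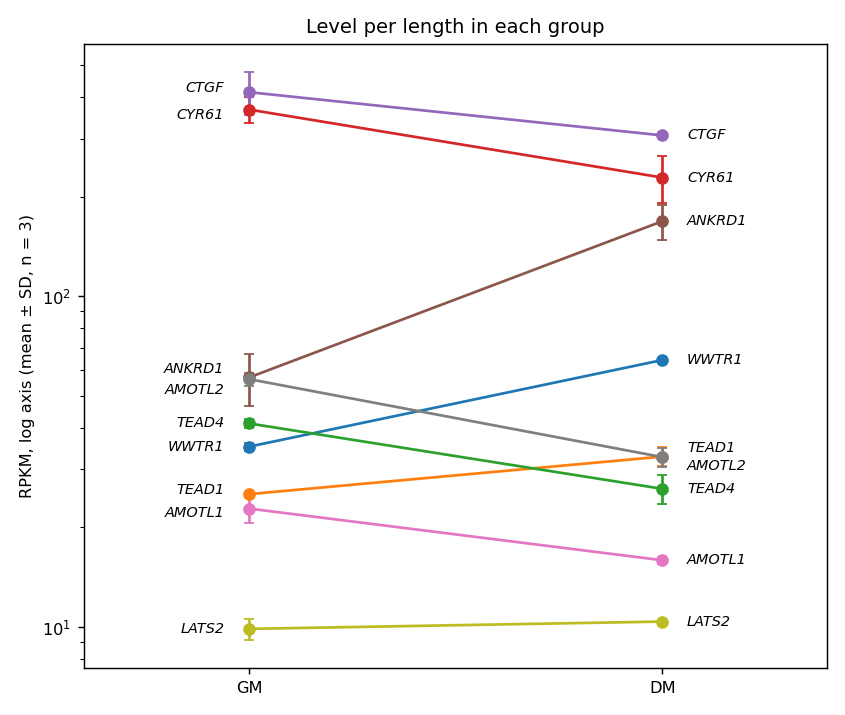
Level per length of the 9 genes in GM and DM samples (y axis, RPKM on a log axis, mean ± SD, n = 3). CTGF and CYR61 are highest in both groups, ANKRD1 and WWTR1 climb, and TEAD4, AMOTL1 and AMOTL2 descend.

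Per length, CTGF was the most abundant of the 9 transcripts in both groups, with 414 ± 61.4 RPKM in GM samples and 307 ± 1.81 RPKM in DM samples (SD, n = 3 each). By rank of RPKM among the 15576 tested genes it stood at 209 in GM samples and 240 in DM samples. CYR61 came next, with 367 ± 33.4 and 229 ± 36.7 RPKM, at ranks 233 and 315. In GM samples the ranges of CTGF and CYR61 overlapped, and in DM samples they did not. ANKRD1 followed in both groups, with 56.8 ± 10.3 RPKM in GM samples and 169 ± 20.4 RPKM in DM samples, and moved from rank 1774 to rank 455. The order below ANKRD1 in GM samples was AMOTL2, TEAD4, WWTR1, TEAD1, AMOTL1 and LATS2, with overlap only between ANKRD1 and AMOTL2. In DM samples it was WWTR1, TEAD1, AMOTL2, TEAD4, AMOTL1 and LATS2, with overlap only between TEAD1 and AMOTL2. LATS2 was lowest in both, at 9.87 ± 0.708 and 10.4 ± 0.114 RPKM.

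Among the feedback inhibitors, the angiomotins AMOTL1 and AMOTL2 fell, and the kinase LATS2 did not pass the test. Angiomotin proteins bind YAP1 and WWTR1 and keep them at cell junctions and actin fibres, and AMOTL2 is itself a target. AMOTL2 (ENSBTAG00000000742, chromosome 1, 136053624 to 136071002, plus strand) held 149, 163 and 159 CPM in GM replicates 1, 2 and 3, and 94.3, 94.1 and 104 CPM in DM replicates 1, 2 and 3. The groups were well apart. AMOTL2 fell by 0.69 on the log2 scale (SE 0.068, adjusted p = 7.20e-06), the largest fall among the 9 genes. AMOTL1 (ENSBTAG00000018945, chromosome 15, 15794576 to 15884804, minus strand) held 75.4, 79.2 and 65.9 CPM in GM replicates 1, 2 and 3, and 57.6, 53.3 and 53.8 CPM in DM replicates 1, 2 and 3. It fell by 0.42 on the log2 scale (SE 0.080, adjusted p = 0.000914), and GM replicate 3 lay closest to the DM samples.

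AMOT (chromosome X), the remaining angiomotin, went the other way. It held 8.83, 10.3 and 7.54 CPM in GM replicates 1, 2 and 3, and 26.6, 23.7 and 19.1 CPM in DM replicates 1, 2 and 3. AMOT was called higher (log2 fold change 1.37, SE 0.15, adjusted p = 1.39e-05). In the summed RPKM of the family, AMOT made up 3.46 ± 0.409% in GM samples and 12.4 ± 2.08% in DM samples. AMOTL2 made up 67.0, 67.7 and 71.3% of the sum in GM replicates 1, 2 and 3. In DM replicates 1, 2 and 3 it made up 56.1, 58.3 and 62.1%. AMOTL2 remained the most abundant member in each sample, and its share differed by -9.83 percentage points. The angiomotin shares too make up the whole in each sample and are not separate observations. AMOTL1 kept 27.9 ± 1.97% and 28.7 ± 0.988%, with overlap between the groups (exact permutation p = 0.6, two-sided). For AMOT, for AMOTL2 and for the summed family level, which was 79.1 ± 3.70 in GM samples and 57.4 ± 1.31 in DM samples as RPKM divided by the TMM factor, the exact permutation test gave p = 0.1, again the smallest possible, and 0.113 after adjustment.

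LATS2 (ENSBTAG00000014406, chromosome 12, 35919546 to 35942309, plus strand) encodes a kinase that phosphorylates YAP1 and WWTR1, and its transcription is a known feedback target of both. It held 30.8, 35.7 and 32.8 CPM in GM replicates 1, 2 and 3, and 37.8, 36.4 and 37.6 CPM in DM replicates 1, 2 and 3. The DM samples were a little above the GM samples without overlap. The log2 fold change was 0.17 (SE 0.075, adjusted p = 0.0694), with a 95% confidence interval of 0.0040 to 0.34 before adjustment. Without GM replicate 2 it was 0.23 (adjusted p = 0.0332). Its paralog LATS1 had 46.3 ± 2.10 CPM (GM) and 41.9 ± 3.06 CPM (DM), and its log2 fold change was -0.14 (adjusted p = 0.126) with an interval of -0.31 to 0.03.

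**Figure D4:**
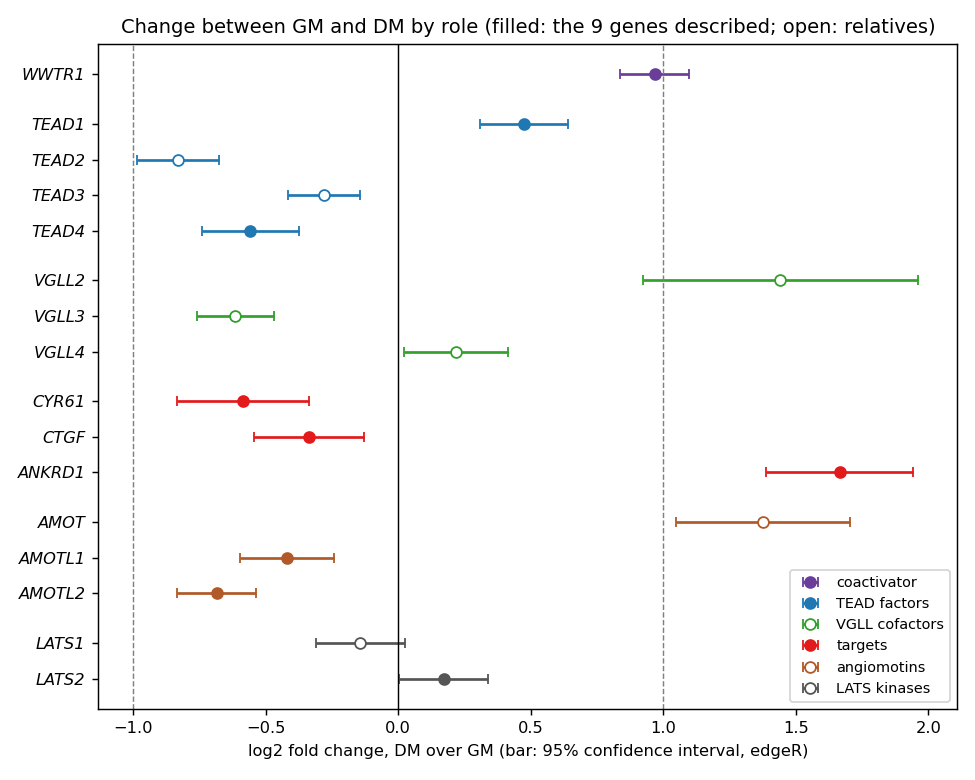
Log2 fold change of DM over GM (x axis, with 95% confidence intervals from edgeR) for the 9 genes (filled) and for close relatives (open), grouped by role, with dashed lines at -1 and 1. ANKRD1 at 1.67, AMOT at 1.37 and VGLL2 at 1.44 lie beyond 1, the intervals of VGLL2 and of WWTR1 at 0.97 span it, and the remaining genes lie between -1 and 1.

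Genes upstream of the coactivators were compared as a list of 51 kinases, scaffolds and junction proteins other than the 9 genes. Of these, 49 were listed and tested, 4 were called higher and 3 lower, and at an adjusted p-value under 0.05 without a fold minimum 21 rose and 13 fell. Of all tested genes 25.3% were called and 63.0% passed without a fold minimum. The called share was thus lower in this list than among all tested genes. The share passing without a fold minimum, 34 of 49, was not lower. GM and DM samples did not overlap for 37 of the 49, beside 68.8% of all tested genes. The median log2 fold change was 0.16. WWC1 (KIBRA), a scaffold that activates LATS kinases, fell most, with 78.1 ± 5.68 CPM (GM) and 8.44 ± 2.24 CPM (DM), a log2 fold change of -3.21 (adjusted p = 4.16e-08). Its paralog WWC2 had a log2 fold change of -0.01 and WWC3 fell by 0.16 on the log2 scale. ZYX (zyxin), a LIM protein of focal adhesions and actin fibres, had 931 ± 37.9 CPM (GM) and 308 ± 13.2 CPM (DM), a log2 fold change of -1.60 (adjusted p = 1.32e-08). MPP5 (PALS1), a polarity scaffold, fell by 1.04 on the log2 scale, and its call was lost in the test against a fold change of 2 and without GM replicate 1, DM replicate 1 or DM replicate 3, with estimates from -1.15 to -0.96 when samples were left out.

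Called higher among upstream genes were FAT4, PATJ, AMOT and SLMAP. FAT4, a giant cadherin upstream of the pathway, had 48.4 ± 3.67 CPM (GM) and 198 ± 27.4 CPM (DM), and its log2 fold change was 2.03 (adjusted p = 5.90e-08). Its ligand DCHS1 and the related FAT1 rose by 0.69 and 0.48 on the log2 scale. These cadherins were grouped after the values were seen, and 31.6% of all tested genes rose. PATJ, a polarity scaffold, was low at 1.92 ± 0.0952 CPM (GM) and 7.20 ± 1.30 CPM (DM), and its log2 fold change was 1.91. Per length it had 0.334 to 0.367 RPKM in GM samples and 0.967 to 1.38 RPKM in DM samples. SLMAP, a subunit of the striatin phosphatase complex that restrains STK3 and STK4, had a log2 fold change of 1.02, and its call was lost with library size alone, in the test against a fold change of 2, and without GM replicate 2 or DM replicate 3, with estimates from 0.95 to 1.10 when samples were left out.

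Of the 7 genes of the kinase core (STK3, STK4, SAV1, LATS1, MOB1A, MOB1B and NF2), none was called, 2 rose, 1 fell and 4 did not pass the test, beside 25.3% of all tested genes called and 63.0% past the adjusted p-value. This grouping was made after the values were seen. MOB1A, which activates LATS kinases, rose by 0.47 and STK4 by 0.32 on the log2 scale, and NF2, the membrane scaffold merlin, fell by 0.45. STK3, which encodes MST2, had 45.8 ± 2.06 CPM (GM) and 47.0 ± 3.36 CPM (DM), with overlap. Among 10 MAP4K and TAO kinases, which act on LATS in parallel to STK3 and STK4, 2 rose and 3 fell. The most abundant per length, MAP4K4, held 568 ± 24.0 CPM (GM) and 288 ± 15.4 CPM (DM), a log2 fold change of -0.98 (adjusted p = 3.60e-07). MAP4K4 was called lower with library size alone, without GM replicate 3 and without DM replicate 1. The related kinases STK38 and STK38L, relatives of LATS, rose by 0.78 and 0.94 on the log2 scale, and STK38L was called without DM replicate 1.

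A list of 17 further genes known as targets of YAP1 and WWTR1, written from general knowledge, moved in both directions. Of these, 14 were tested, 2 were called higher and 3 lower, and without a fold minimum 5 rose and 6 fell, beside 25.3% of all tested genes called and 63.0% past the adjusted p-value. The median log2 fold change was -0.02. NUAK2, a kinase, had 24.6 ± 1.84 CPM (GM) and 5.49 ± 2.44 CPM (DM), a log2 fold change of -2.16 (adjusted p = 2.60e-05). Another protein-coding gene with counts overlaps NUAK2 on the same strand, so counts of NUAK2 are uncertain. IgFBp3 (so listed, IGFBP3), an IGF binding protein, had 189.8 ± 14.6 CPM (GM) and 57.7 ± 15.2 CPM (DM), a log2 fold change of -1.72 (adjusted p = 5.42e-06). AXL, a receptor tyrosine kinase, had 291 ± 2.39 CPM (GM) and 106 ± 18.0 CPM (DM), a log2 fold change of -1.46 (adjusted p = 6.04e-07). TGFB2, a TGF-β ligand, had 39.2 ± 2.93 CPM (GM) and 113 ± 9.49 CPM (DM), and its log2 fold change was 1.53 (adjusted p = 9.94e-08). RBMS3, an RNA-binding protein, had 1.92 ± 0.407 CPM (GM) and 6.47 ± 1.10 CPM (DM), and its log2 fold change was 1.75 (adjusted p = 3.01e-05). FOXF2 had 3 counts over the 6 samples and was not tested, and FJX1 and NT5E were not found by symbol. PTPN14 is in both the upstream and the target list and rose by 0.35 on the log2 scale. The same 5 genes of the target list were called in all 13 other fits.

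**Figure D5:**
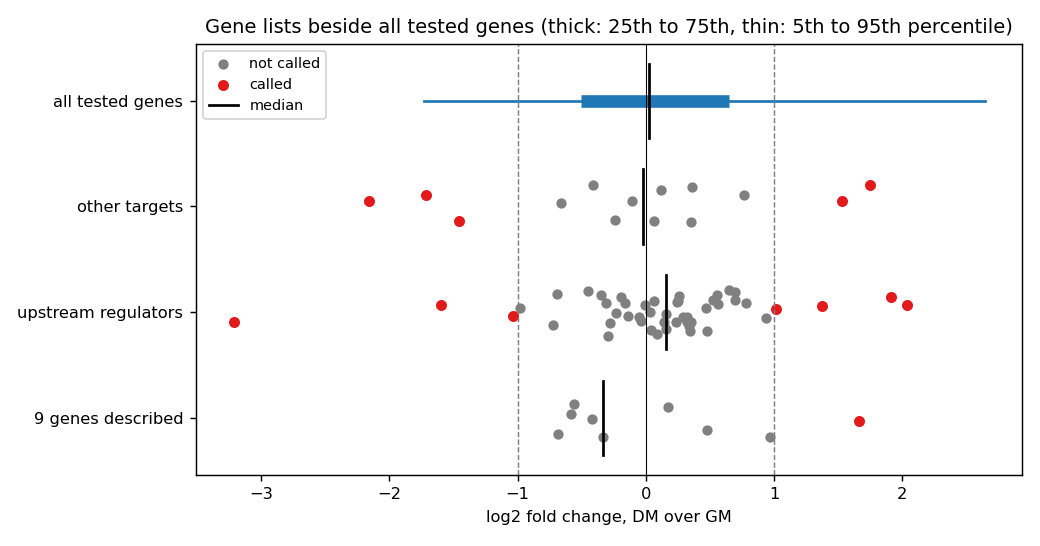
Log2 fold change of DM over GM (x axis) for each gene of the 9 genes, the upstream list and the target list, with called genes in red and the median as a bar, beside all 15576 tested genes (thick bar, 25th to 75th percentile, thin bar, 5th to 95th percentile). The points of the 3 lists spread to both sides of 0, with medians of -0.34, 0.16 and -0.02 beside 0.03 for all tested genes.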

How the data were processed

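Buffalo MuSCs were profiled by polyA-seq in 3 GM and 3 DM samples, grouped and numbered by their titles. The authors deposited raw counts per gene and per mRNA transcript, made after alignment with HISAT2 per the methods, which name a buffalo assembly, while the tables list cattle Ensembl identifiers and no build. The submitters' processing notes name Bowtie 0.12.2 and mouse builds instead. The supplement lists HTSeq among its references, and the version and the use of strand in counting are not given in the sources used here. The authors' RPKM values divide these deposited counts by gene length and total gene counts. The deposited lists of differential features hold the authors' fold changes and p-values and were not used. No sample column was left unmapped.

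The test was edgeR 4.0.16 under R 4.3.3 (TMM, glmQLFit, glmQLFTest), run on genes with at least 10 counts in total, with Benjamini-Hochberg adjustment over all 15576 genes. A call required both an adjusted p-value below 0.05 and a log2 fold change beyond 1 in size, the cut-offs of the methods. The study also limited differential genes to those it defined by RPKM as reliably expressed. That limit was not applied here, and PATJ would not have passed it. Standard errors came from the F statistic. TMM factors were 1.03 to 1.04 (GM) and 0.948 to 0.983 (DM). Shares of RPKM were compared with an exact permutation test in scipy 1.17.1. Fits were tested on simulated data. Alternatives were DESeq2 1.42.0, DESeq2's size factors or library size alone in place of TMM, 2 other filters, a replicate block, a test against a fold change of 2, transcript counts and the omission of each single sample.

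The genes and lists were chosen with earlier results of these data known. Named genes were the members, TEAD2, TEAD3, AMOT and, in each list, the 3 called genes with the largest rise and the 3 with the largest fall. SLMAP, the kinase core, LATS1, STK3, WWC2, WWC3, DCHS1, FAT1, MAP4K4, STK38, STK38L, VGLL1, VGLL3, VGLL4, PTPN14 and the genes not found or not tested were named after their values were seen, as were the subgroups of the upstream list. Same-numbered GM and DM samples did not deviate together, with r across genes of -0.0467 to -0.0081 for 3 pairs. Sequences were not used here.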

Additional observations from a re-analysis of the deposited data

How the results depend on the processing

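Across 14 alternatives the 9 genes kept the sign of their log2 fold change and their side of the calling thresholds in all 126 values. ANKRD1 was the gene called each time. The test against a fold change of 2 keeps the fitted log2 fold changes, so their signs could not differ there. With the replicate block, 1 of the 9 genes was called and 8 had an adjusted p-value under 0.05, and since the replicate numbers share no source in the labels the block is a number only. The block left the number of calls in each list as it was. Without a fold minimum, 8 to 9 of the 9 genes passed when single samples were left out, the 9th being LATS2 without GM replicate 2. The upstream list had 7 calls, and 5 to 8 when samples were left out, with 5 without DM replicate 3 and in the test against a fold change of 2, and with library size alone its calls were 3 higher and 4 lower in place of 4 and 3. The 5 target calls were made in each of the 13 alternatives run for that list. In the test against a fold change of 2 (glmTreat in edgeR), the list of other TEAD and VGLL genes had 0 calls, with 1 gene at an unadjusted p-value under 0.05 and a smallest adjusted p-value of 0.0732, against 1 call in the edgeR fit and in DESeq2. Over all genes the calls moved too. The edgeR fit called 3936 of 15576 genes, and the test against a fold change of 2 called 2293 of 15576. With the replicate block 3837 of 15576 were called. When samples were left out, 3647 to 3995 genes were called, with 3995 of 15356 without DM replicate 3. The TEAD4 share differed by -4.00 to -2.58 percentage points and the AMOTL2 share by -11.5 to -8.48 when samples were left out. Each of the 9 genes has 1 listed transcript with the same counts as the gene, so the transcript table differs only in its scaling and in the features tested. The planned share of WWTR1 in YAP1 plus WWTR1 was not run, since YAP1 was not found by symbol. At 3 samples a group the permutation tests cannot go below 0.1.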
